A study of Rattus norvegicus with 12 samples.

Results

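The genes followed here move magnesium and calcium across kidney tubule cells or bind them inside those cells: the ion channels Trpm6, Trpm7 and Trpv5, the magnesium transporters Cnnm2, Cnnm4, Slc41a1 and Slc41a3, the calcium-binding proteins Pvalb and Calb1, and the sodium-calcium exchanger Slc8a1. They were chosen by name, because cisplatin is known to cause magnesium wasting, though earlier results of these data were known. All array probes whose transcript accession maps to 1 of these 10 symbols were taken, whatever their values. That gave 21 of the 61537 probes outside the controls. They stand for 9 of the 10 genes, among 15645 genes with a named probe. No probe was matched to Trpm6, which is therefore not analysed here.

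The study measured total RNA of the renal cortex on single-colour Agilent arrays, with 1 array for each of 12 male Sprague-Dawley rats bought at 5 weeks of age. In each of 2 experiments 3 rats received water and 3 received cisplatin, a platinum-based cancer drug that injures kidney tubules, for 4 weeks. The daily dose was 3.75 mg/kg/day by gavage in the first of these and 0.75 mg/kg/day by the intravenous route in the other. The intravenous dose is the one on each sample's own label, whereas a protocol text shared by all samples gives 3.75 mg/kg/day, and route, dose and experiment changed together. The labels call the 3 animals of a group biological replicates.

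In the kidney most filtered magnesium and calcium returns to the blood between the cells, along the proximal tubule and the thick ascending limb. The last share crosses the cells of the distal convoluted and connecting tubule, where magnesium enters through channels of Trpm6 and Trpm7, calcium enters through Trpv5, and calbindin (Calb1) and, in early distal cells, parvalbumin (Pvalb) carry or buffer calcium. Calcium then leaves into the blood through the sodium-calcium exchanger Slc8a1 and a calcium pump, while Cnnm2, a protein of the basolateral membrane that is altered in inherited magnesium loss, and transporters of the Slc41 family take part in magnesium exit. Loss of magnesium in the urine is a well-known effect of cisplatin in patients.

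The upstream sequences of 4 members are shown because these genes moved in opposite directions in both experiments: Trpv5 and Slc41a3 rose with cisplatin, and Cnnm2 and Trpm7 fell. Each runs 5′ to 3′ from 250 bases before to 50 bases after an annotated start in RefSeq's GRCr8 table, which holds 7 of the 10 members. Capitals mark matches on either strand to 5 short motifs. These were the TATA box, read as TATAAA, the CCAAT box, read as CCAAT, and the GC box of Sp1-type factors, read as GGGCGG. The others were the AP-1 site, read as TGANTCA with N for any base, and the nuclear receptor core site, read as AGGTCA.
Trpv5 (chr4:71529333-71529632, minus strand): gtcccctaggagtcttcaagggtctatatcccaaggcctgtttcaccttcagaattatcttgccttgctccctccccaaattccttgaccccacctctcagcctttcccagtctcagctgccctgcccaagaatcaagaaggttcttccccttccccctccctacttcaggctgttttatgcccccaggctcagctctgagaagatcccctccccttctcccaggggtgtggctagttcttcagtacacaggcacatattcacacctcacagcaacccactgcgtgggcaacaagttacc
Slc41a3 (chr4:124684717-124685016, plus strand): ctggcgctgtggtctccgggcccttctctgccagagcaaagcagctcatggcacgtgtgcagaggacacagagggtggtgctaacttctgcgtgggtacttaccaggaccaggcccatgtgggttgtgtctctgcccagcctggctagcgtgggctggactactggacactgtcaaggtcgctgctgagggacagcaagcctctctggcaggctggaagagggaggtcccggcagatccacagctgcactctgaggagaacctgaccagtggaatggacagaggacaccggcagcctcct
Cnnm2 (chr1:255584902-255585201, plus strand): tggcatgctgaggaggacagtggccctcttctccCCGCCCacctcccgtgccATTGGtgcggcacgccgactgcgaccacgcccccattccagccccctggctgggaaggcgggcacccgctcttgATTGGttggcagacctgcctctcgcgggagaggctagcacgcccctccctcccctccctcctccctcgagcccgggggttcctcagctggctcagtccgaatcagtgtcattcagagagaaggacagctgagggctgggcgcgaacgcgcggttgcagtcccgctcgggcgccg
Trpm7 (chr3:134588064-134588363, minus strand): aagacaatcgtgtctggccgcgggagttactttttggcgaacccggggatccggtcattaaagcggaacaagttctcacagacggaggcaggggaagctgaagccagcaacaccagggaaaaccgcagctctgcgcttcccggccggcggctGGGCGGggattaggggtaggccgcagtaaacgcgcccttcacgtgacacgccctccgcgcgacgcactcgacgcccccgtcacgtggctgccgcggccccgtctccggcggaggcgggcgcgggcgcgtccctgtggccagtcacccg

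The stretches before Trpv5 and Slc41a3 held none of the 5 motifs. That before Cnnm2 held 2 CCAAT boxes and 1 GC box, and that before Trpm7 held 1 GC box, with no overlap between motifs. In capitals, ATTGG is the CCAAT box and CCGCCC the GC box read from the opposite strand. Of all 33469 rat promoters of this length, 37.5% held the CCAAT box, 33.1% the GC box, 16.2% the nuclear receptor core, 14.2% the TATA box and 7.33% the AP-1 site. The G and C content was 54.3% for Trpv5, 61.7% for Slc41a3, 69.0% for Cnnm2 and 68.0% for Trpm7, against a median of 51.7% over all of them. Slc8a1, whose sequence is not shown, also fell in both experiments. Its stretch held 2 CCAAT boxes and no GC box, with a G and C content of 36.3%, so the fallers were not alike in these traits. A match describes these letters only, and its absence says nothing about a factor.

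Values are log2 processed signals minus the 75th percentile of the array, so that 0 is the 75th percentile and 1 unit is a doubling. A gene with several probes is represented by the brightest of them on average over all 12 arrays. A feature was tested where that probe stood well above background in 3 of 3 arrays in any group. Arrays of a group correlated at r = 0.981 to 0.993 across probes. The markers of 2 segments of the renal cortex, the distal convoluted tubule (6 of 6 on the arrays) and the proximal tubule (8 of 8), were well above background on every array. The 75th percentile itself was 969.7 to 1055 units of intensity on the water arrays and 1387 to 1532 on the cisplatin arrays. Dividing it out sets the median change of all features near 0 (0.0068 in the gavage experiment and -0.063 in the intravenous one), whereas scaling on spiked-in control probes sets it at 0.62 and 0.44.

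With oral cisplatin 7 of the 8 members tested changed. Calb1, Cnnm2, Slc8a1 and Trpm7 fell, and Trpv5, Slc41a3 and Cnnm4 rose, while the probe that stands for Slc41a1 did not pass the test. With intravenous cisplatin the same 4 fell and Trpv5 and Slc41a3 rose, 6 of 8 in all. A member was called where limma's Benjamini-Hochberg adjusted p over all 34444 features was under 0.05. By that rule 59.3% of all features were called in the gavage experiment (29.5% higher and 29.8% lower) and 58.4% in the intravenous one (26.4% higher and 32% lower), so that a call on its own is common in these data. The median change of the 8 members was -0.35 (gavage) and -0.30 (intravenous). With spike-in scaling 4 members rose and 3 fell in each experiment, against 3 and 4 (gavage) and 2 and 4 (intravenous) as reported.

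**Figure D1:**
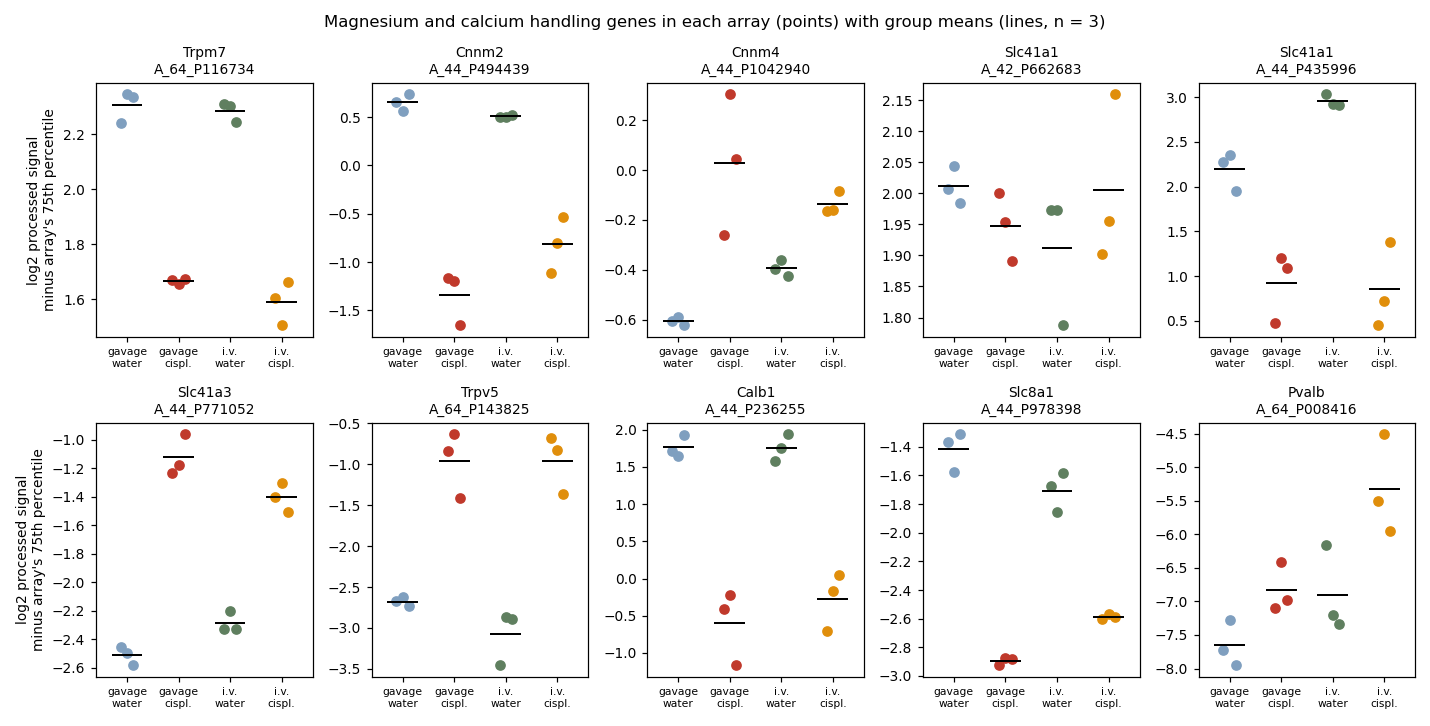
Log2 processed signal minus the array's 75th percentile (vertical axis) of each array (points, 3 per group) with the group means (lines), for the probe that stands for each of the 9 members on the array and for a second probe of Slc41a1. In Calb1, Cnnm2, Slc8a1 and Trpm7 all cisplatin points lie below all water points of the same experiment, and in Trpv5, Slc41a3 and Cnnm4 all lie above them.

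Trpm7 is a channel fused to a kinase, carries magnesium and other divalent ions, and is made in nearly all cells. Its brighter probe read 2.24, 2.34 and 2.33 on the gavage water arrays and 1.67, 1.66 and 1.68 on the gavage cisplatin arrays. It read 2.31, 2.30 and 2.24 on the intravenous water arrays and 1.61, 1.51 and 1.66 on the intravenous cisplatin arrays. Every cisplatin value lay below every water value, with little spread inside the groups. Trpm7 changed by -0.64 ± 0.07 log2 units (SE, n = 3 against 3) for gavage, a 1.56-fold fall (limma adjusted p = 4.24e-05), and -0.69 ± 0.07, a 1.62-fold fall, for the intravenous route (limma adjusted p = 4.08e-05). The dimmer probe A_44_P550412 changed by -0.73 ± 0.11 and -0.31 ± 0.11. The latter (limma adjusted p = 0.0293) lost its call when intravenous water replicate 1 (-0.23) or 2 (-0.32) or intravenous cisplatin replicate 2 (-0.23) was left out. It was also lost without a filter on dim probes (0.0519) and where only the intravenous groups were fitted (0.0783). The fall of Trpm7 is a fall relative to the rest of the array: scaled on spike-in probes its brighter probe changed by -0.03 (limma adjusted p = 0.784) and -0.19 (0.086), and its dimmer probe by -0.12 (0.325) and 0.19 (0.128).

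Cnnm2 is made mainly in the distal convoluted tubule and thick ascending limb. Its single probe read 0.66, 0.56 and 0.73 with water and -1.17, -1.20 and -1.65 with cisplatin by gavage. In the intravenous experiment it read 0.50, 0.50 and 0.52 with water and -1.11, -0.80 and -0.54 with cisplatin. No cisplatin value reached a water value, and the cisplatin animals were more spread out (SD 0.273 and 0.286) than the water animals (0.0868 and 0.0134). The log2 change was -1.99 ± 0.16 for gavage, a 3.98-fold fall (limma adjusted p = 5.34e-06), and -1.33 ± 0.16, a 2.51-fold fall, for the intravenous route (limma adjusted p = 9.31e-05). With spike-in scaling both falls remained past the threshold, at -1.38 and -0.82.

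Cnnm4, a related protein best known from the basolateral membrane of intestinal cells, went the other way. Its brightest probe read -0.61, -0.59 and -0.62 with gavage water and -0.26, 0.30 and 0.04 with gavage cisplatin. It read -0.40, -0.36 and -0.43 with intravenous water and -0.16, -0.16 and -0.08 with intravenous cisplatin. The cisplatin values lay above the water values in both experiments, but by less in the intravenous one. Its log2 change was 0.64 ± 0.12 for gavage (limma adjusted p = 0.00123) and 0.26 ± 0.12 for the intravenous route, which did not pass (limma adjusted p = 0.0917, 95% interval -0.01 to 0.53). It passed there when gavage cisplatin replicate 1 (0.0234) or 2 (0.0333) was left out of the shared estimate of spread, and where only the intravenous groups were fitted (0.0386). It also passed as the mean of all Cnnm4 probes (0.22, limma adjusted p = 0.0459) and with spike-in scaling (0.76, limma adjusted p = 0.0027).

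Cnnm4 has 3 other probes. A_44_P381384 rose by 0.45 ± 0.09 and 0.48 ± 0.09 and A_64_P100768 by 0.36 ± 0.12 and 0.46 ± 0.12, gavage before intravenous, all 4 past the threshold. The gavage call of A_64_P100768 was lost without gavage water replicate 2 (0.28) or without gavage cisplatin replicate 1 (0.26) or 2 (0.36), with normexp background correction (0.10), with quantile normalization (0.25), and where only the gavage groups were fitted (limma adjusted p = 0.0637). The dimmest, A_43_P22111, read between -4.79 and -4.07 on all 12 arrays. Its water and cisplatin groups overlapped in both experiments, with changes of 0.19 ± 0.20 and -0.31 ± 0.20 that did not pass. The intravenous one passed with normexp background correction (-0.31, limma adjusted p = 0.0139) and the gavage one with spike-in scaling (0.80, 0.00832).

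Slc41a1 and Slc41a3 belong to a family of magnesium transporters, Slc41a1 at the cell surface and Slc41a3 reported in mitochondria. The brightest Slc41a1 probe stayed between 1.79 and 2.16 on all 12 arrays, with overlapping groups and changes of -0.06 ± 0.09 (95% interval -0.27 to 0.14) and 0.09 ± 0.09 (-0.11 to 0.30). A second probe of the gene, A_44_P435996, did otherwise. It read 2.28, 2.36 and 1.96 with gavage water, 0.47, 1.20 and 1.09 with gavage cisplatin, 3.03, 2.92 and 2.91 with intravenous water, and 0.45, 0.73 and 1.38 with intravenous cisplatin. All cisplatin values were below all water values, and the intravenous water arrays were the highest of all. In the water groups this probe averaged 2.20 (gavage) and 2.96 (intravenous), above the 2.01 and 1.91 of the probe called brightest. The latter has the highest mean over all 12 arrays, cisplatin arrays included. Which probe stands for Slc41a1 thus depended on the values compared.

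The second Slc41a1 probe changed by -1.28 ± 0.25 for gavage (limma adjusted p = 0.00127) and -2.10 ± 0.25 for the intravenous route (limma adjusted p = 7.79e-05). The third, A_64_P049859, changed by -0.12 ± 0.12 and -0.17 ± 0.12, neither past the threshold, though the gavage change passed with normexp background correction (-0.28, limma adjusted p = 0.0340). So 2 of the 3 probes of Slc41a1 did not pass and 1 fell, and the mean of the 3 gave -0.49 (limma adjusted p = 0.00537) and -0.72 (6.02e-04). Which transcripts the 3 probes read was not tested. With spike-in scaling the brightest probe rose instead, by 0.55 and 0.60, so no single direction holds for this gene.

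Slc41a3 rose in both experiments. Its only probe read -2.46, -2.49 and -2.58 with gavage water and -1.23, -1.18 and -0.96 with gavage cisplatin. It read -2.33, -2.20 and -2.33 with intravenous water and -1.40, -1.31 and -1.51 with intravenous cisplatin. The groups were far apart, and the gavage cisplatin animals were the highest. Its log2 change was 1.39 ± 0.10 for gavage, a 2.61-fold rise (limma adjusted p = 2.34e-06), and 0.88 ± 0.10, a 1.84-fold rise, for the intravenous route (limma adjusted p = 5.04e-05).

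Among the calcium genes, the entry channel Trpv5 rose. The brighter of its probes read -2.67, -2.63 and -2.73 with gavage water and -0.84, -0.63 and -1.42 with gavage cisplatin. It read -3.45, -2.86 and -2.89 with intravenous water and -0.68, -0.83 and -1.36 with intravenous cisplatin. Each cisplatin animal was above each water animal, and in both experiments replicate 3 was the lowest of the cisplatin animals. The log2 change was 1.71 ± 0.24 for gavage, a 3.28-fold rise (limma adjusted p = 1.72e-04), and 2.11 ± 0.24, a 4.32-fold rise, for the intravenous route (limma adjusted p = 6.69e-05). The second probe, A_44_P228928, rose by 1.60 ± 0.27 and 1.62 ± 0.27, or by 0.98 and 1.04 with normexp background correction. Trpv5 and Trpv6 are close paralogs, and whether these probes also bind Trpv6 transcripts was not tested.

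Calb1, the calbindin that ferries calcium through distal cells, had the largest fall in both experiments among the probes that stand for the 8 members tested. Its probe read 1.72, 1.65 and 1.93 with gavage water and -0.41, -0.22 and -1.16 with gavage cisplatin. It read 1.58, 1.76 and 1.94 with intravenous water and -0.70, -0.17 and 0.05 with intravenous cisplatin. All 6 water animals were above 1.5 and no cisplatin animal reached 0.1. The log2 change was -2.36 ± 0.25 for gavage, a 5.15-fold fall (limma adjusted p = 2.88e-05), and -2.03 ± 0.25, a 4.10-fold fall, for the intravenous route (limma adjusted p = 1.08e-04). In RNA from whole cortex, fewer cells of a type and less RNA per cell cannot be told apart.

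The pattern of Calb1 over the 12 arrays was most like that of Kcnj1, the apical potassium channel of the thick ascending limb and collecting duct, among all named genes tested. After each gene was centred on its own mean, the root mean square difference from Calb1 was 0.164 log2 units for Kcnj1, 0.179 for Grhpr and 0.188 for Galm. Kcnj1 changed by -2.35 ± 0.21 and -2.16 ± 0.21, and the nearness of its changes to those of Calb1 follows from this choice over the same arrays. Galm changed by -2.36 and -1.97, and Grhpr by -2.56 and -1.67.

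Slc8a1, which trades sodium for calcium at the basolateral membrane, fell on all 6 of its probes in both experiments. The brightest read -1.37, -1.57 and -1.31 with gavage water and -2.92, -2.88 and -2.88 with gavage cisplatin. It read -1.67, -1.86 and -1.59 with intravenous water and -2.60, -2.57 and -2.59 with intravenous cisplatin. The cisplatin values were tightly grouped and lower than every water value. The log2 change was -1.48 ± 0.09 for gavage, a 2.79-fold fall (limma adjusted p = 1.67e-06), and -0.88 ± 0.09, a 1.84-fold fall, for the intravenous route (limma adjusted p = 4.92e-05). Over the 6 probes the changes ran from -1.75 to -0.93 (gavage) and from -1.68 to -0.88 (intravenous), and their groups did not overlap. Spike-in scaling ended 1 of these 12 calls, that of probe A_64_P008607 for gavage (-0.32, limma adjusted p = 0.132).

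Pvalb, the parvalbumin of early distal convoluted tubule cells and of muscle, was close to the background of the arrays. Its probe was not well above background on any gavage array or any intravenous water array, and was so on 2 of the 3 intravenous cisplatin arrays, so it was not tested. It read -6.16, -7.21 and -7.33 with intravenous water and -5.51, -4.51 and -5.95 with intravenous cisplatin. Replicate 3 of intravenous cisplatin (-5.95) was the one not well above background, so it has no order against the water arrays, and no fold is given. The gavage values, -7.72, -7.27 and -7.95 with water and -7.10, -6.42 and -6.98 with cisplatin, have no order either.

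**Figure D2:**
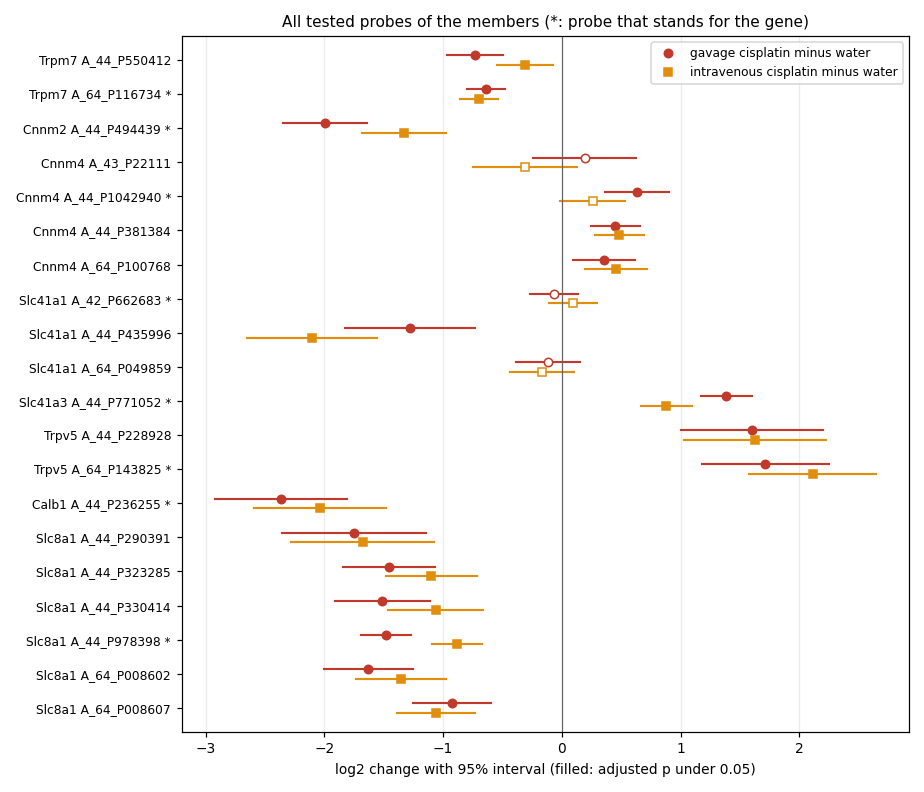
Log2 change with its 95% interval (horizontal axis) of the 20 member probes tested, for gavage cisplatin minus water (circles) and intravenous cisplatin minus water (squares), with filled symbols where the adjusted p was under 0.05 and an asterisk on the probe that stands for a gene. All 6 Slc8a1 probes lie left of 0, both Trpv5 probes right of 0, and the 3 Slc41a1 probes are apart, with A_44_P435996 alone at -1.28 and -2.10.

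By probe, 20 of the 21 member probes were tested. In the gavage experiment 6 rose, 11 fell and 3 did not pass, beside 59.6% of all 43900 probes called (29.6% higher and 29.9% lower). In the intravenous experiment 5 rose, 11 fell and 4 did not pass, beside 58.2% of all probes (27.6% higher and 30.6% lower). The 11 that fell were 6 probes of Slc8a1, 2 of Trpm7 and 1 each of Cnnm2, Calb1 and Slc41a1 in both experiments. Of the 20 tested, 17 had groups that did not overlap in each experiment, beside 67.1% (gavage) and 65.9% (intravenous) of all probes measured on every array of both groups.

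The arrays lay on 3 slides, each scanned at 1 time. The 3 gavage water arrays shared slide 1 with replicate 1 of gavage cisplatin. Replicates 2 and 3 of that group shared slide 2 with intravenous water, and intravenous cisplatin had slide 3 to itself. Fitting slide as a fixed block leaves the gavage change to slide 1, where 1 cisplatin animal stands against 3 water animals and the other arrays supply the spread. That value was -0.64 for Trpm7, -1.82 for Cnnm2, 0.35 for Cnnm4, -0.01 for Slc41a1, 1.28 for Slc41a3, 1.83 for Trpv5, -2.18 for Calb1 and -1.51 for Slc8a1. It describes that animal and is no test of the treatment within a slide. In the intravenous comparison slide and treatment cannot be told apart.

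The next comparison asked whether the members responded differently in the 2 experiments. None of the 8 did by the test of the difference itself, beside 1.2% of all features called (0.168% higher and 1.03% lower), nor did any of the 20 member probes, beside 0.815% of all probes (0.169% higher and 0.647% lower). Of these 20 probes 5 had an unadjusted limma p under 0.05, beside 19.3% of all probes. The nearest gene was Slc8a1, whose fall on its brightest probe was smaller by 0.60 ± 0.13 in the intravenous experiment (95% interval 0.30 to 0.90, limma adjusted p = 0.0607). Its other probes did not share this: their differences ran from -0.13 to 0.45, and their lowest unadjusted limma p was 0.106. The change of Slc41a3 differed by -0.51 ± 0.13 (-0.81 to -0.21, limma adjusted p = 0.0933), a smaller rise, and that of Cnnm2 by 0.67 ± 0.23, a smaller fall (0.16 to 1.17, 0.155).

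These differences stood near the threshold and crossed it in some fits. Slc8a1 passed with normexp background correction (0.65, limma adjusted p = 0.0331), without gavage cisplatin replicate 1 (0.58) and without intravenous cisplatin replicate 1 (0.61). Without gavage cisplatin replicate 1, Slc41a3 (-0.56) and Cnnm4 (-0.52) also passed, and without intravenous cisplatin replicate 1, Cnnm2 (0.81). For Trpv5 (0.40, 95% interval -0.36 to 1.16) and Calb1 (0.33, -0.46 to 1.12) the intervals reach past 1 unit. Those of Trpm7 (-0.28 to 0.17) and Slc41a1 (-0.13 to 0.44) were narrower.

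The water groups of the 2 experiments served as each other's background. No member differed between them by limma (lowest adjusted p of the 20 probes 0.220), beside 0% of all features called, and 3 member probes had an unadjusted p under 0.05, beside 13.9% of all probes. The largest of these differences was in the second Slc41a1 probe, which was 0.76 ± 0.25 higher in the intravenous water group. It passed where only these groups were fitted (limma adjusted p = 0.0438) and was 0.09 once slide was fitted as a fixed block. In that fit the slide term comes only from gavage cisplatin replicate 1 on slide 1 against replicates 2 and 3 on slide 2. It therefore cannot tell a slide difference from a difference between these animals. The others were Slc8a1 (-0.29 ± 0.09) and Slc41a3 (0.22 ± 0.10), both smaller than their cisplatin changes.

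The counts of calls in the gene lists from here on stand beside 59.3% (gavage) and 58.4% (intravenous) of all features called. Around the magnesium members, the other magnesium transporters were mixed: of 10 tested, 3 rose, 4 fell and 3 did not pass in the gavage experiment, and 2 rose, 3 fell and 5 did not in the intravenous one. Their median changes were -0.0069 and 0.014, close to those of all features (0.0068 and -0.063). Slc41a2, the remaining relative of Slc41a1 and Slc41a3, rose by 2.91 ± 0.34 and 1.35 ± 0.34. It was dim, at -6.04 to -5.32 and -4.68 to -3.36 in the water groups, and its gavage rise was 1.28 with normexp background correction. Nipa1 rose by 1.05 and 0.81, Cnnm3, the relative of Cnnm2, fell by 0.68 and 0.66, and Magt1 changed by -0.35 and -0.28. Scaled on spike-in probes, 7 of the 10 rose and 0 fell in each experiment, and Magt1 turned to 0.26 and 0.22. The call of Magt1 in the intravenous experiment was lost without intravenous water replicate 1 (-0.23) or 2 (-0.27) or intravenous cisplatin replicate 2 (-0.27), and in the gavage experiment with the slide as a fixed block (-0.27, from 1 cisplatin animal).

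Of 10 regulators of magnesium transport tested, 5 fell and 2 rose with gavage and 6 fell and 2 rose with intravenous cisplatin, with median changes of -0.35 and -0.43. Egf, the growth factor that acts on distal cells to draw Trpm6 to the membrane, averaged 5.01 ± 0.05 (SD, n = 3) with gavage water and -1.47 ± 0.41 with gavage cisplatin. In the intravenous experiment it averaged 5.32 ± 0.06 and -0.09 ± 0.94. The changes were -6.48 ± 0.38 and -5.41 ± 0.38, while its receptor Egfr rose by 0.95 ± 0.11 and 0.96 ± 0.11. Fxyd2, a subunit of the sodium pump mutated in a dominant magnesium loss, fell by 2.62 and 1.84. Pcbd1, a pterin carbinolamine dehydratase, fell by 2.20 and 1.74.

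Most genes of the paracellular route of the thick ascending limb fell. Of 9 genes 7 fell and 2 did not pass in each experiment, with median changes of -1.99 and -1.85, and 7 also fell with spike-in scaling. Of the 9, 3 (Slc12a1, Kcnj1 and Cldn16) are also among the thick ascending limb markers. The calcium-sensing receptor Casr fell by 4.79 and 3.69, the potassium channel Kcnj1 by 2.35 and 2.16, and the chloride channel subunit Bsnd by 1.99 and 1.86. The claudins that did not pass, singled out after their values were seen, were Cldn19 (0.20 and 0.38) and Cldn14 (-1.66 and 0.36).

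Around the calcium members, 10 other genes of calcium entry, buffering and exit were tested, of which 2 rose, 3 fell and 5 did not pass in each experiment, with median changes of -0.14 and -0.20. Trpv6, the nearest relative of Trpv5, rose most. It read -5.20, -4.89 and -4.65 with gavage water and 0.44, 0.57 and 0.83 with gavage cisplatin, and -5.37, -4.73 and -4.82 with intravenous water and 0.68, -0.40 and -0.18 with intravenous cisplatin. All cisplatin animals were more than 4 units above the water animals of their experiment. The changes were 5.53 ± 0.28 and 5.01 ± 0.28 (limma adjusted p = 4.85e-07 and 1.27e-06), or 3.97 and 3.57 with normexp background correction, since the water signal was dim.

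S100g, the small calbindin of distal cells and also a connecting tubule marker, changed by -2.05 ± 0.53 with gavage (limma adjusted p = 0.00748) and by -0.60 ± 0.53 with intravenous cisplatin, which did not pass. With intravenous cisplatin it read 0.29, 2.25 and 2.34, against 2.46, 2.09 and 2.12 with water, so replicate 1 alone lay low and the change without it was 0.07. On slide 1, with its 1 cisplatin animal, the gavage change was -1.96 (limma adjusted p = 0.0723). Slc8b1, the mitochondrial sodium-calcium exchanger, rose by 0.97 and 0.53, the latter lost without intravenous water replicate 1 (0.47) or 2 (0.51) or intravenous cisplatin replicate 1 (0.35). The pump gene Atp2b2 changed by -0.77 and -0.19, the gavage call lost without gavage water replicate 1 (-0.76) or 3 (-0.65) or gavage cisplatin replicate 3 (-0.54), and with the slide as a fixed block (-0.41, from 1 cisplatin animal). With spike-in scaling 3 of the 10 rose and 1 fell (gavage), and 4 rose and none fell (intravenous).

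Of 7 genes in the hormonal control of calcium, 5 fell and 1 rose in each experiment, with median changes of -1.29 and -1.28. Pth1r, the receptor of parathyroid hormone, fell by 3.80 and 2.56, Kl, the co-receptor of the hormone FGF23, by 2.56 and 1.74, and Cyp2r1, a hydroxylase of vitamin D, by 2.14 and 1.28. Rxra, the partner of the vitamin D receptor, fell by 0.78 with gavage and changed by -0.19 with intravenous cisplatin, which did not pass and was 0.31 with spike-in scaling. The gene that rose was Cyp24a1, which breaks down active vitamin D and was singled out after its values were seen, by 2.63 ± 0.54 and 2.85 ± 0.54. Genes of intracellular calcium stores were mixed, with 5 rising and 5 falling of 14 (gavage) and 4 and 4 (intravenous), and median changes of -0.20 and -0.05. Among them the store channel Itpr3 rose by 1.74 ± 0.17 with gavage and passed in both experiments, and the membrane channel Orai2 rose by 1.46 and 0.92. The related store channel Itpr1 fell by 1.34 and 1.22 and the store pump Atp2a2 by 0.74 and 0.54. With spike-in scaling 8 rose and 2 fell (gavage) and 9 rose and 2 fell (intravenous), and Atp2a2 no longer passed (-0.13 and -0.04).

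**Figure D3:**
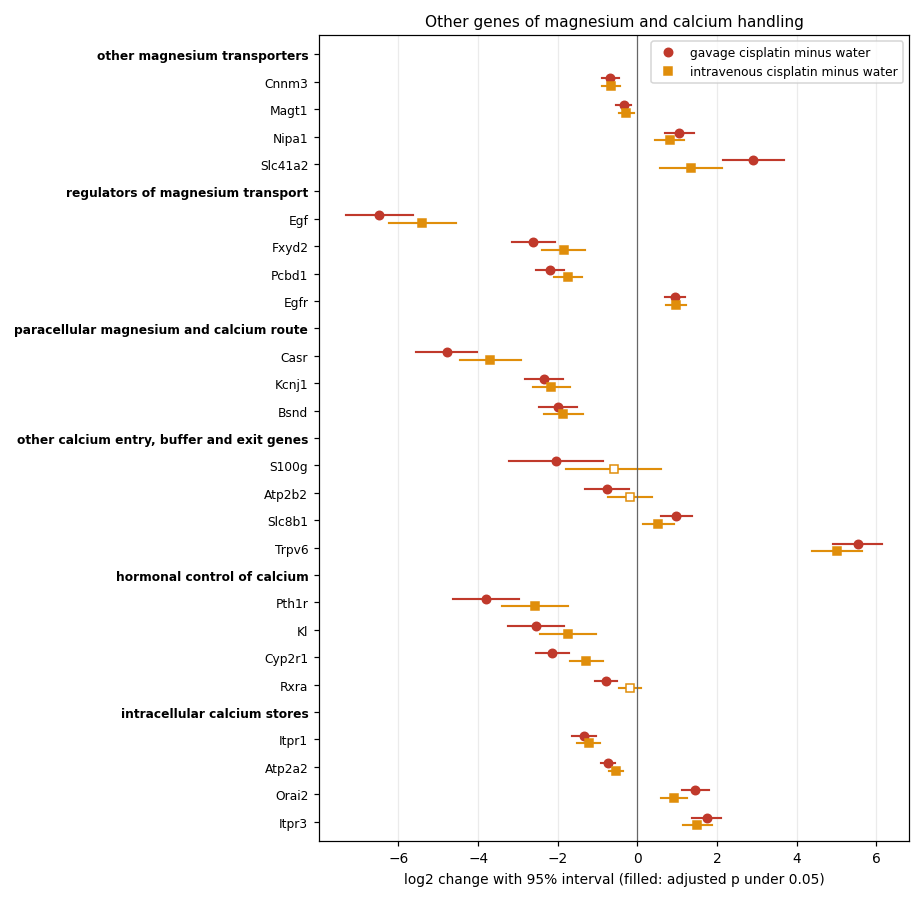
Log2 change with its 95% interval (horizontal axis) of up to 4 genes from each of 6 lists around the members, for gavage (circles) and intravenous cisplatin (squares), filled where the adjusted p was under 0.05. Egf and Casr lie farthest to the left, at -6.48 and -4.79 with gavage, and Trpv6 farthest to the right, at 5.53.

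Marker genes of the cell types that make or surround the members were also followed. Their counts stand beside the shares of all features called. These were 29.5% higher and 29.8% lower with gavage, and 26.4% higher and 32% lower with intravenous cisplatin. Of 6 distal convoluted tubule markers, where Cnnm2, Trpv5, Calb1 and Pvalb are made, 4 fell and none rose with gavage and 5 fell and none rose with intravenous cisplatin, with median changes of -1.15 and -1.11. Their summed signal, in multiples of the array's 75th percentile, went from 84.4 to 98.3 with gavage water to between 34.0 and 39.5, and from 91.4 to 100.8 with intravenous water to between 34.2 and 38.7. The sum moved most through Wnk1, and for the other 5 it was 60.6 to 71.7 in the water groups and 25.7 to 31.5 in the cisplatin groups. Of 8 markers of the connecting tubule and collecting duct, which also hold Trpv5, Calb1 and Slc8a1, 6 fell with gavage and 5 with intravenous cisplatin and none rose, with median changes of -1.23 and -0.74. Their sum went from 294.7 to 356.8 to between 140.7 and 238.6, and from 283.1 to 301.0 to between 112.5 and 189.9, mostly through Klk1. For the other 7 it was 173.8 to 208.8 with gavage water and 130.1 to 228.7 with gavage cisplatin, which overlap, and 155.9 to 162.7 and 92.3 to 175.3 in the intravenous experiment, which also overlap. Aqp2, the water channel of the collecting duct, did not pass (0.49 and -0.23). The part of these markers in the members' changes was not tested.

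Of 6 thick ascending limb markers 5 fell and 1 did not pass in each experiment, with median changes of -1.91 and -1.92. Their sums were 442.7 to 541.3 in the water groups, 5.84 to 11.7 with gavage cisplatin and 4.94 to 47.7 with intravenous cisplatin. Most of the water sums is Umod, the uromodulin gene, and the other 5 summed to 28.7 to 44.4 with water and 4.60 to 18.4 with cisplatin. With intravenous cisplatin Umod read -1.57, 4.36 and 4.87, and replicate 1 was the lowest of its group in all these markers. Of 8 proximal tubule markers 8 fell with gavage and 7 with intravenous cisplatin, with median changes of -4.11 and -2.19. Their sums were 1102 to 1269 with water, 71.4 to 158.6 with gavage cisplatin and 114.8 to 420.8 with intravenous cisplatin. Replicate 1 of intravenous cisplatin, which also lay low for S100g, was the lowest of its group in all of them but Cubn. There Slc34a1 read 3.65, 6.43 and 6.58, and Slc22a2 read -0.45, 2.72 and 3.10.

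Fibroblast and matrix markers rose, 7 of 7 tested in each experiment, with median changes of 2.33 and 2.14. Of the 8 listed, 2 (Lum and Postn) were well above background on no water array, and Postn was not tested. Lum entered the test only through cisplatin arrays, so its place among the risers adds no support. Of 8 macrophage markers 7 rose with gavage and 5 with intravenous cisplatin, with median changes of 1.48 and 1.04. Among the 8, 1 (Cd163) was well above background on no water array and likewise entered the test only through cisplatin arrays. The sums were 25.5 to 36.5 (fibroblast and matrix) and 17.7 to 28.9 (macrophage) with water, against 82.0 to 167.8 and 33.6 to 64.8 with cisplatin. Of 8 muscle markers, beside the muscle protein Pvalb, 4 rose with gavage and 1 rose and 1 fell with intravenous cisplatin, with median changes of 0.64 and 0.04. Their sums were 3.16 to 4.19 with water and 5.54 to 21.7 with cisplatin, mostly through Tagln, a smooth muscle actin-binding protein. The other 7 summed to 1.89 to 2.46 in the water groups, 3.23 to 4.25 with gavage cisplatin and 1.61 to 3.10 with intravenous cisplatin.

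Of 6 endothelial markers 3 fell with gavage and 2 with intravenous cisplatin, with median changes of -0.38 and -0.31. Their sums were 24.0 to 31.4 with water and 16.2 to 17.9 with cisplatin, mostly through Kdr, a receptor of the growth factor VEGF. The other 5 summed to 8.46 to 9.54 and 6.76 to 7.74 in the gavage experiment, and to 7.19 to 9.11 and 6.93 to 7.66, which overlap, in the intravenous one. Of 4 lymphocyte markers none passed with gavage (lowest limma adjusted p = 0.350, Cd3g) and 3 rose with intravenous cisplatin, with median changes of 0.21 and 1.38. Replicate 1 of intravenous cisplatin lay nearest the water values in those that rose. Cd3g read -0.92, 0.58 and 0.67, against -1.70, -1.16 and -1.36 with intravenous water. Cd8a read -3.81, -2.39 and -2.62, against -4.71, -3.92 and -3.91. Their sums were 0.544 to 1.02 and 0.867 to 0.916 in the gavage experiment and 0.455 to 0.706 and 0.744 to 2.05 in the intravenous one, water before cisplatin. The part of all these cell types in the members' changes was not tested.

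**Figure D4:**
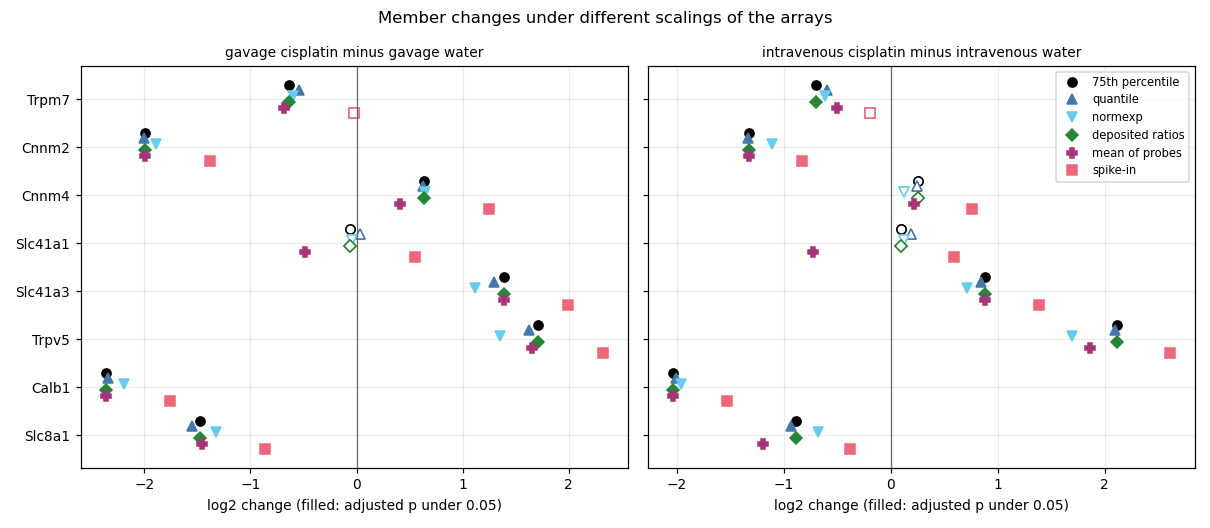
Log2 change (horizontal axis) of the 8 members tested in the gavage (left) and intravenous (right) experiment under 6 ways of scaling or summarising the arrays, filled where the adjusted p was under 0.05. The spike-in points lie to the right of the others, where Trpm7 reaches -0.03 and -0.19 and is not called, while Calb1, Cnnm2 and Slc8a1 stay below 0 and Trpv5 and Slc41a3 above it under all 6.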

How the data were processed

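Total RNA of 12 rat renal cortices was measured, 3 arrays for each of 4 groups. Agilent Feature Extraction, version 10.7 in the submitters' processing notes and 10.7.1.1 per the file headers, gave the spot values. Per the file headers, the authors' processed intensity has the local background of each array taken off and no scaling across arrays. A second table that the authors deposited, tried as an alternative, holds a linear ratio, which matched the processed intensity divided by the array's 75th percentile. Its column medians were 0.109 to 0.121, and no source used here says why this scaling was chosen.

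Log2 processed intensity minus each array's 75th percentile was analysed, without 1439 control spots and 82 spots marked uneven. No spot was saturated. Accessions were matched to symbols through a RefSeq table of GRCr8, used for names and for the upstream sequences. The array design refers to rn4, and no probe positions are given. Of 61537 probes, 28206 matched 1 symbol and 33331 none, and each unnamed probe stayed a feature of its own. The brightest probe on average stood for a gene, which left 34444 of 48976 features tested, 12610 of them named genes. Every probe was also tested on its own (43900).

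One limma fit (version 3.58.1, R 4.3.3) of the 4 groups used all 12 arrays, with 8 residual and 2.09 prior degrees of freedom. Tests were two-sided, p-values were adjusted by Benjamini-Hochberg over every tested feature, and errors of changes are standard errors. The fit was tested on simulated data. The contrasts were cisplatin minus water in each experiment, the difference of these changes and the difference of the water groups.

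The 16 gene lists, that of the members among them, and the settings and tests were chosen with earlier results of these data known. All members were named with every probe, and of each list outside the markers up to 4 genes with the smallest gavage p, of which 1 is not reported here. Alternatives were normexp background correction on median signals (offset 50, in place of the mean signals first planned), quantile and spike-in scaling, the deposited ratios, no filter, the mean of all probes, uneven spots kept, slide and replicate blocks, only the groups compared, and each array left out. Proteins were not compared. The number of arrays limits the precision.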

Additional observations from a re-analysis of the deposited data

How the results depend on the processing

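The gavage and intravenous changes of the 8 members kept their call and direction in 349 of 360 recomputed values, and the other 11 are those of Trpm7, Cnnm4 and Slc41a1 given beside their values. With normexp background correction 1 member and 1 member probe were higher in the difference of the changes, against 0. With spike-in scaling 4 members and 8 member probes rose with intravenous cisplatin, against 2 and 5. With only the groups compared, 1 member probe was higher in intravenous than in gavage water, against 0. Directions turned with spike-in scaling for Slc41a1 (gavage 0.55) and its probe A_64_P049859 (0.49 and 0.34), Magt1 (0.26 and 0.22), Rxra (intravenous 0.31) and the Trpm7 probe A_44_P550412 (intravenous 0.19, not called), and with the mean of all probes for Slc41a1 (intravenous -0.72). Over the 12 fits that each leave out 1 array, members higher in the difference numbered 0 to 2 and lower 0 to 2, and so did member probes. Members that rose numbered 3 to 3 (gavage) and 2 to 3 (intravenous) and those that fell 4 to 4 in both. Over all features, calls of a difference between the experiments numbered 58 higher and 355 lower as reported, and ran from 0 to 960 higher and from 0 to 2078 lower over these 12 fits. No sign of pairing by replicate number was seen: same-numbered arrays deviated from their group means with correlations of -0.0866, 0.0620 and -0.0375 (gavage) and -0.0282, 0.00766 and -0.108 (intravenous). Those of differently numbered arrays ran from -0.0902 to 0.124. With 3 arrays per group this check cannot exclude a pairing. With the replicate block, calls were lost for the Trpm7 probe A_44_P550412 (intravenous -0.31, limma adjusted p = 0.0672), Magt1 (intravenous -0.28, 0.0638), Slc8b1 (intravenous 0.53, 0.0666) and Atp2b2 (gavage -0.77, 0.0516), and no other named call of cisplatin against water changed. As a random block the slide had a consensus correlation of -0.0122, and no member call changed. With 3 animals per group, dim probes such as that of Pvalb could not be tested.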
